A study of Mus musculus with 3 samples.

Results

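Plasma membrane amino acid transporters were examined as a family of 10 genes in differentiated C2C12 cells, which are mouse myoblasts of an immortal line that form multinucleate myotubes on differentiation. The 10 genes, chosen by name with earlier results of these data known, were Slc7a5, Slc3a2, Slc7a6, Slc7a1, Slc7a3, Slc1a4, Slc1a5, Slc38a1, Slc38a2 and Slc6a9. All 10 were found among the 46316 gene symbols of the tables, and all 10 had a mean of 1 CPM or more (counts scaled to a common library size), as did 13381 genes in total. There were 3 RNA-seq libraries of total RNA, 1 per group, taken 4 days into differentiation. The rescue library came from C2C12 cells labelled as a Drp1 knockout that transiently expressed FLAG-Drp1. The KO library came from cells with the same Drp1 knockout label, and the WT library from cells labelled WT. Drp1 is the GTPase that divides mitochondria. The labels do not state how the knockout was made or whether the cells were 1 clone. Since each group had 1 library, no difference could be checked against replicates, no p-value was computed, and each statement describes these libraries.

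Cells take up amino acids through carriers that each serve a set of substrates. Slc3a2 (4F2hc, CD98) is a heavy chain that brings light chains of the Slc7 family, such as Slc7a5 (LAT1), to the cell surface, where the pair exchanges leucine and other large neutral amino acids. Import of leucine activates the growth kinase complex mTORC1. Several of these genes are known targets of ATF4, the transcription factor of the integrated stress response, which raises amino acid uptake and synthesis when amino acids run short.

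The gene counts summed to 13925296 in rescue, 13790417 in KO and 13894114 in WT. Dnm1l, the gene of Drp1, had 1481 counts in rescue, 1284 in KO and 1823 in WT, so its RNA was present in the library labelled KO. Markers of differentiated muscle were abundant, with 9 myotube markers summing to 261955, 199558 and 195077 counts in rescue, KO and WT. Most of these reads came from Acta1, Myh3 and Mylpf, and 6 of the 9 markers were lower in KO than in WT. Among them were Ckm with 3527 counts in rescue, 1424 in KO and 4406 in WT, and Actn2 with 89, 31 and 176. Another was Mylpf with 42658, 26543 and 38484. The other 3 markers were higher in KO than in WT. Acta1 had 86717 counts in rescue, 70182 in KO and 61533 in WT. Myh3 had 77629, 62250 and 50576, and Myog had 17277, 16122 and 11853. Macrophage, endothelial and adipocyte markers were at or near 0, with 12 of 14 at 10 or fewer counts in every library. The exceptions were Cd68, a lysosomal marker with 42 counts in rescue, 55 in KO and 22 in WT, and the endothelial receptor Tek with 11, 7 and 16. The 6 myoblast markers summed to 39504, 35830 and 55638 counts in rescue, KO and WT, mostly Des with 33501, 30192 and 42605. Of the 5 myoblast markers with a mean of 1 CPM or more, 4 were lower in KO than in WT and 1 was higher. The 5 fibroblast markers, mostly Dcn, summed to 1984, 2028 and 5298 counts in rescue, KO and WT. The 6 neuron and glia markers summed to 603, 478 and 1076, mostly Tubb3 with 574, 451 and 1050, and 4 of them had 10 or fewer counts in every library. Their part in the results was not tested. In bulk RNA, fewer cells of a type and less RNA per cell cannot be told apart.

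Of the 10 transporter genes, 9 were higher in KO than in WT and 1, Slc38a2, was lower. The ratios were taken after scaling for library size and adding 0.5 to each count, and the threshold for a call was 2-fold. By this measure 4 of the 10 were higher in KO (Slc7a3, Slc7a5, Slc3a2 and Slc1a5) and 0 were lower. Across all 13381 genes tested, 5.35% were at least 2-fold higher in KO and 4.07% at least 2-fold lower. The median log2 ratio of the 10 genes was 0.86, beside 0.00 for all genes tested. The counting interval lay wholly above 0 for 9 of the 10 genes and wholly below 0 for 1, beside 29.0% and 29.3% of all genes. In rescue against KO, 0 of the 10 differed by 2-fold in either direction, beside 1.30% of all genes higher and 0.575% lower. Summed over the 10 genes there were 24849 counts in rescue, 27110 in KO and 17548 in WT. These sums were 0.178% of all gene counts in rescue (exact interval 0.176 to 0.181%), 0.197% in KO (0.194 to 0.199%) and 0.126% in WT (0.124 to 0.128%). All intervals are 95% intervals that cover counting error only.

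**Figure D1:**
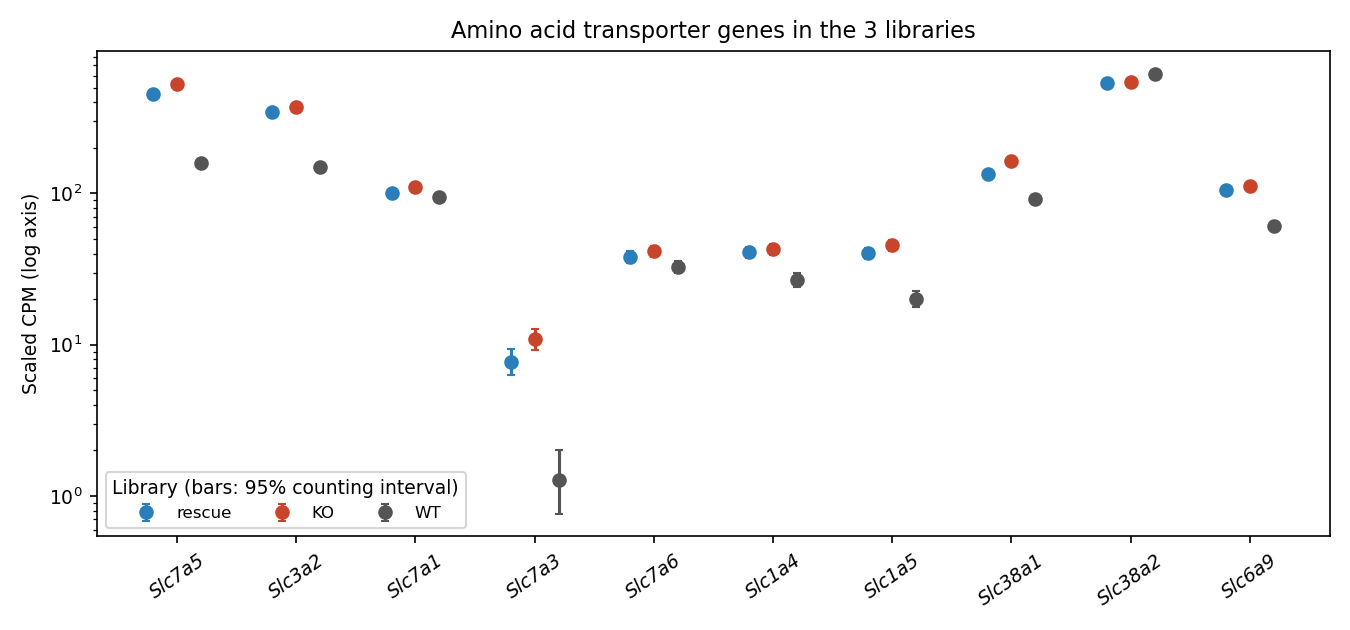
Scaled CPM (log axis) of the 10 genes in the rescue, KO and WT libraries, 1 library each. Bars are 95% counting intervals. For 9 genes both the rescue and KO points sit above WT, and for Slc38a2 both sit below it.

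After Slc7a3, the leucine exchange pair had the highest ratios of the 10 genes, although the counting interval of Slc3a2 overlapped that of Slc1a5. Once a trend with transcript length was subtracted at the rows used, Slc1a5 stood above Slc3a2, at 1.22 against 1.18. At the shortest rows it did not, at 1.22 against 1.37. Slc7a5, the light chain that carries leucine and other large neutral amino acids, had 6263 counts in rescue, 7283 in KO and 2242 in WT. KO was 3.31-fold above WT (log2 ratio 1.72, interval 1.66 to 1.79). Slc3a2, its heavy chain, had 4770 counts in rescue, 5105 in KO and 2100 in WT. KO was 2.47-fold above WT (log2 ratio 1.31, interval 1.23 to 1.38). Both partners were thus higher, and the log2 ratio of Slc7a5 exceeded that of Slc3a2 by 0.42, with counting intervals that did not overlap.

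Slc7a6 (y+LAT2), another light chain of Slc3a2, exchanges cationic for neutral amino acids. It had 523 counts in rescue, 572 in KO and 461 in WT, with KO 1.26-fold above WT (log2 ratio 0.34, interval 0.16 to 0.52). Its log2 ratio was 1.39 below that of Slc7a5. Of the 6 light chains that pair with Slc3a2, Slc7a8 and Slc7a10 had at most 1 count in each library. Slc7a7, the y+LAT1 light chain, named after its values were seen, had 75 counts in rescue, 67 in KO and 43 in WT. Per kilobase of transcript, Slc7a5 made up 91.5% of the summed light chain level in rescue, 92.0% in KO and 83.3% in WT.

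Cationic amino acid carriers import arginine and lysine. Slc7a1 (CAT1), the widely expressed form, had 1394 counts in rescue, 1517 in KO and 1325 in WT. The KO library was 1.17-fold above WT (log2 ratio 0.22, interval 0.11 to 0.33). Slc7a3 (CAT3), a form known mainly from brain, had 106 counts in rescue, 150 in KO and 18 in WT. It was the lowest of the 10 genes in every library and had the highest ratio, 8.28-fold above WT (log2 ratio 3.05, interval 2.37 to 3.88).

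Slc7a3 overlaps Snx12, a sorting nexin gene, in the RefSeq annotation of GRCm38.p6, and the labels do not state whether the counting used strand. Snx12 had 809 counts in rescue, 786 in KO and 1145 in WT, a log2 ratio of -0.52 for KO against WT. Its part in the Slc7a3 counts was not tested. Among the 7 transcript rows of Slc7a3 the lowest had 145 counts in KO and 18 in WT.

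The Slc1 family members Slc1a4 (ASCT1) and Slc1a5 (ASCT2) exchange small neutral amino acids, with serine among the substrates of both and glutamine a main substrate of Slc1a5. Slc1a5 had 553 counts in rescue, 625 in KO and 282 in WT. KO was 2.25-fold above WT (log2 ratio 1.17, interval 0.97 to 1.38), so the interval reached below 2-fold. Slc1a4 had 563 counts in rescue, 589 in KO and 377 in WT, with KO 1.59-fold above WT (log2 ratio 0.67, interval 0.48 to 0.86). The log2 ratio of Slc1a5 was 0.50 above that of Slc1a4, and their counting intervals did not overlap.

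The sodium-coupled carriers Slc38a1 (SNAT1) and Slc38a2 (SNAT2) import glutamine, alanine and other small neutral amino acids. They differed in opposite directions. Slc38a1 had 1852 counts in rescue, 2251 in KO and 1284 in WT, with KO 1.78-fold above WT (log2 ratio 0.84, interval 0.74 to 0.94). Slc38a2, known in other cells as a gene induced by amino acid shortage, had 7384 counts in rescue, 7474 in KO and 8609 in WT. Against WT, KO was lower by a factor of 1.13 (log2 ratio -0.18, interval -0.22 to -0.13). The log2 ratios of this pair lay 1.01 apart.

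Slc6a9 (GlyT1) is a sodium- and chloride-coupled glycine carrier. It had 1441 counts in rescue, 1544 in KO and 850 in WT, with KO 1.85-fold above WT (log2 ratio 0.89, interval 0.76 to 1.01). An overlapping gene, Ccdc24, had 41 counts in KO and 26 in WT, few beside those of Slc6a9. Slc38a1 overlaps Gm32457, which was not analysed here.

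**Figure D2:**
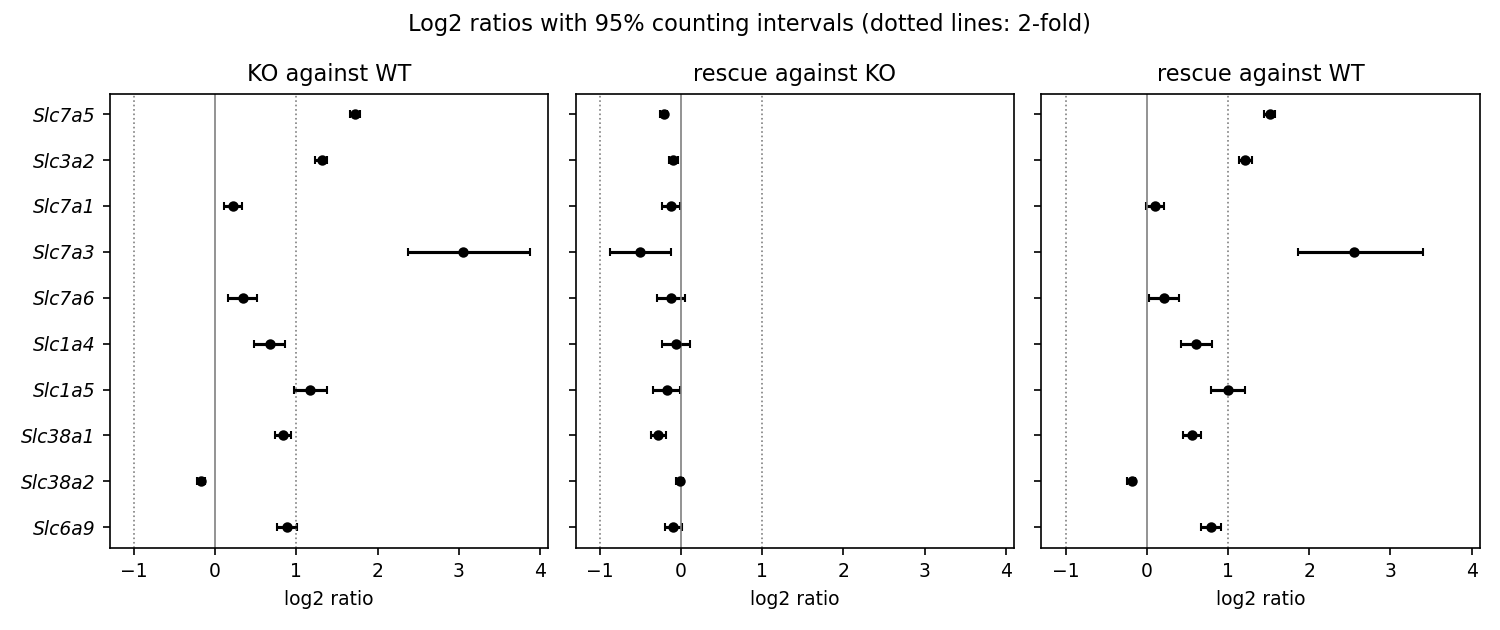
Log2 ratios of the 10 genes in 3 comparisons, with 95% counting intervals. Dotted lines mark 2-fold. The spread from -0.18 for Slc38a2 to 3.05 for Slc7a3 in KO against WT contrasts with a range of -0.50 to -0.01 in rescue against KO.

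The rescue library stayed close to KO. All 10 genes had a log2 ratio below 0 in rescue against KO, with a median of -0.12 and a range of -0.50 to -0.01, beside a median of 0.00 for all genes tested. The counting interval lay wholly below 0 for 6 of the 10 genes, beside 17.7% of all genes. These were Slc7a3 (log2 ratio -0.50, interval -0.87 to -0.13), Slc38a1 (-0.28, interval -0.37 to -0.19), Slc7a5 (-0.21, interval -0.26 to -0.17), Slc1a5 (-0.17, interval -0.34 to -0.01), Slc7a1 (-0.12, interval -0.23 to -0.01) and Slc3a2 (-0.10, interval -0.15 to -0.04). Ratios of this comparison also followed transcript length, and with that trend subtracted at the rows used, 7 of the 10 lay below 0.

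Against WT, 3 of the 10 genes were at least 2-fold higher in rescue and 0 lower, beside 4.59% of all genes higher and 3.06% lower. They were Slc7a3, Slc7a5 and Slc3a2, at 5.87-fold, 2.85-fold and 2.32-fold. Slc1a5 lay just under the threshold at 1.998-fold. With the length trend subtracted it was just over at the row used (log2 ratio 1.02) and just under at its shortest row (0.99). The counting interval lay wholly above 0 for 8 of the 10 genes and wholly below 0 for 1, beside 26.9% and 25.4% of all genes. The median log2 ratio was 0.70, beside 0.01 for all genes tested. The 3 comparisons share libraries, so the ratios are given side by side. Among the 4 genes 2-fold higher in KO, the log2 ratio of rescue against WT was 83.7 to 92.7% of the log2 ratio of KO against WT. Among the other 6 it was 108.2% for Slc38a2, 90.7% for Slc1a4, 89.1% for Slc6a9, 66.6% for Slc38a1, 62.5% for Slc7a6 and 46.0% for Slc7a1. The low shares moved when the length trend was subtracted, by an amount that depended on the row. At the rows used, the log2 ratios against WT were then 0.56 in rescue and 0.64 in KO for Slc38a1. They were 0.25 and 0.31 for Slc7a6, and 0.10 and 0.08 for Slc7a1. At the shortest rows they were 0.55 and 0.70 for Slc38a1, 0.22 and 0.33 for Slc7a6, and 0.09 and 0.10 for Slc7a1. Slc7a1 was the gene nearest WT in rescue (log2 ratio 0.10, interval -0.01 to 0.21), the only one of the 10 whose interval reached 0. Slc38a2 lay below WT in rescue (log2 ratio -0.19, interval -0.24 to -0.15) as it did in KO (-0.18).

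The levels of different genes were compared as RPKM computed from the scaled counts, which divides by transcript length. In rescue, Slc7a5 stood at 129 RPKM and Slc38a2 at 115, and in KO Slc7a5 stood at 150 and Slc38a2 at 116. In WT the order was turned round, with Slc7a5 at 45.4 and Slc38a2 at 132, the highest level of the 10 genes there. These gaps exceeded the counting interval and the range over transcript rows in each library. The place of Slc3a2 could not be fixed, because its transcript rows of 1873 to 6811 bases held nearly the same reads. Its RPKM lay between 50.9 and 185 in rescue, 54.3 and 197 in KO, and 22.0 and 79.3 in WT, depending on the row. Apart from Slc3a2, Slc7a5 and Slc38a2, the next gene was Slc6a9, at 33.4 in rescue, 35.8 in KO and 19.3 in WT.

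Slc7a1, Slc1a5, Slc38a1, Slc1a4 and Slc7a6 formed a middle group, with levels between 6.84 and 16.4 RPKM in all libraries with the rows used. Neighbours in this group were often not separated once the row choice and the counting interval were allowed for. In WT, Slc38a1, Slc7a6, Slc1a5 and Slc1a4 followed one another without such a separation. Slc7a3 was lowest, at 1.43 in rescue, 2.02 in KO and 0.238 in WT. With the rows used, Slc38a2 held 29.5% of the summed level of the 10 genes in rescue, 27.2% in KO and 50.3% in WT. The share of Slc7a5 was 33.1% in rescue, 35.2% in KO and 17.3% in WT. With the row of highest level for each gene, the Slc38a2 shares were 22.4%, 20.8% and 41.8% in rescue, KO and WT. The Slc7a5 shares were then 23.7%, 25.4% and 13.5%. Those of Slc3a2 were then 34.0%, 33.4% and 23.7%, beside 13.0%, 12.8% and 8.4% with the rows used.

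**Figure D3:**
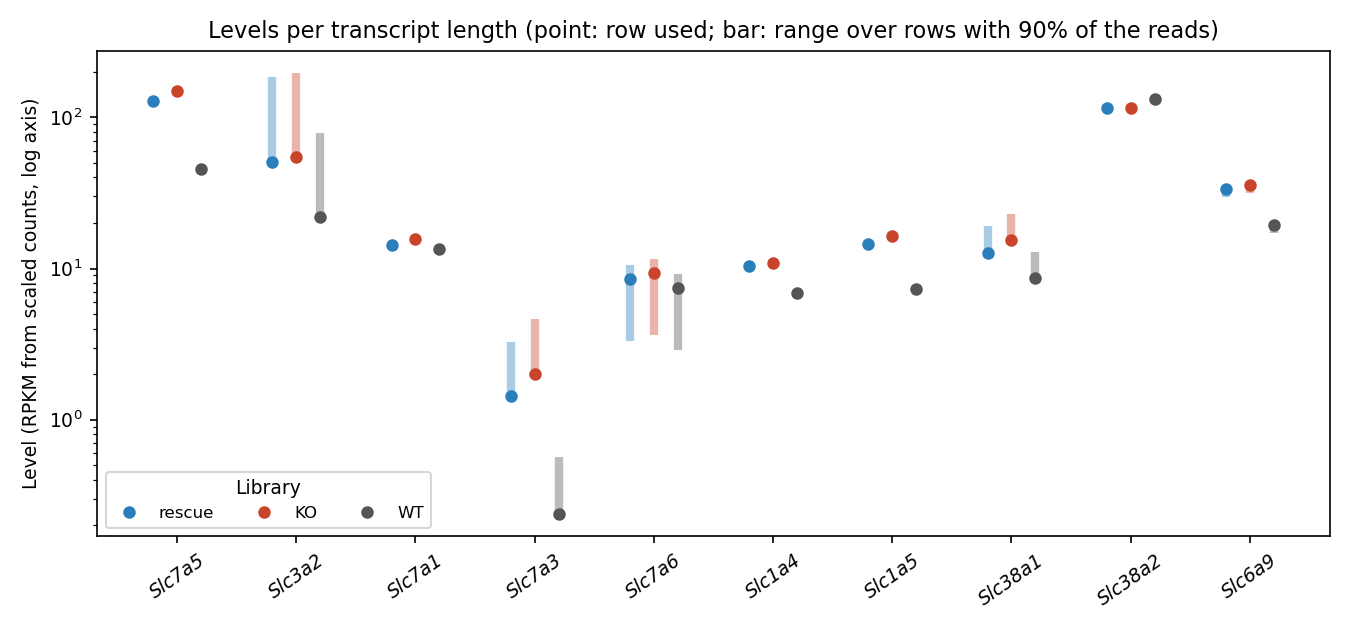
Levels of the 10 genes as RPKM from scaled counts (log axis) in the rescue, KO and WT libraries. Points show the transcript row used and bars the range over rows with at least 90% of its reads. The Slc3a2 bar in KO runs from 54.3 to 197, while Slc7a5, with 1 row, stands at 150.

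Apart from 1 row of Slc3a2, the rows of each gene agreed. For the 7 other genes with more than 1 row, the lowest row held at least 96.7% of the highest in every library. One Slc3a2 row of 2899 bases had 3404 counts in rescue, 3632 in KO and 1452 in WT, beside 4770, 5105 and 2100 in the row used. Its log2 ratio of KO against WT was 1.35, beside 1.31 for the row used. Slc7a5 and Slc1a4 each had 1 row.

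The difference between libraries also followed transcript length. The 10 genes are long, with a median row of 4543 bases beside 3160 for all genes tested. At the length of the row used for Slc38a1, 10592 bases, the running median of all genes was 0.20 between KO and WT. It was -0.22 there between rescue and KO. With that trend subtracted, the KO against WT ratio of Slc38a1 was 0.64, that of Slc3a2 was 1.18 and that of Slc7a1 was 0.08. The same 4 genes stayed at least 2-fold higher, since Slc7a5 was at 1.72, Slc7a3 at 2.94 and Slc1a5 at 1.22. In rescue against KO, ratios after subtraction were -0.40 for Slc7a3, -0.21 for Slc1a5, -0.20 for Slc7a5 and -0.06 for Slc38a1. Those of Slc7a1, Slc3a2 and Slc38a2 then lay above 0, at 0.03, 0.04 and 0.06. For Slc3a2 and Slc38a1 the outcome depended on the row. At the shortest Slc3a2 row of 1873 bases the rescue against KO value was -0.17. At the shortest Slc38a1 row of 6938 bases the trend was 0.13 between KO and WT and -0.14 between rescue and KO. The Slc38a1 ratios after subtraction were then 0.70 and -0.14.

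**Figure D4:**
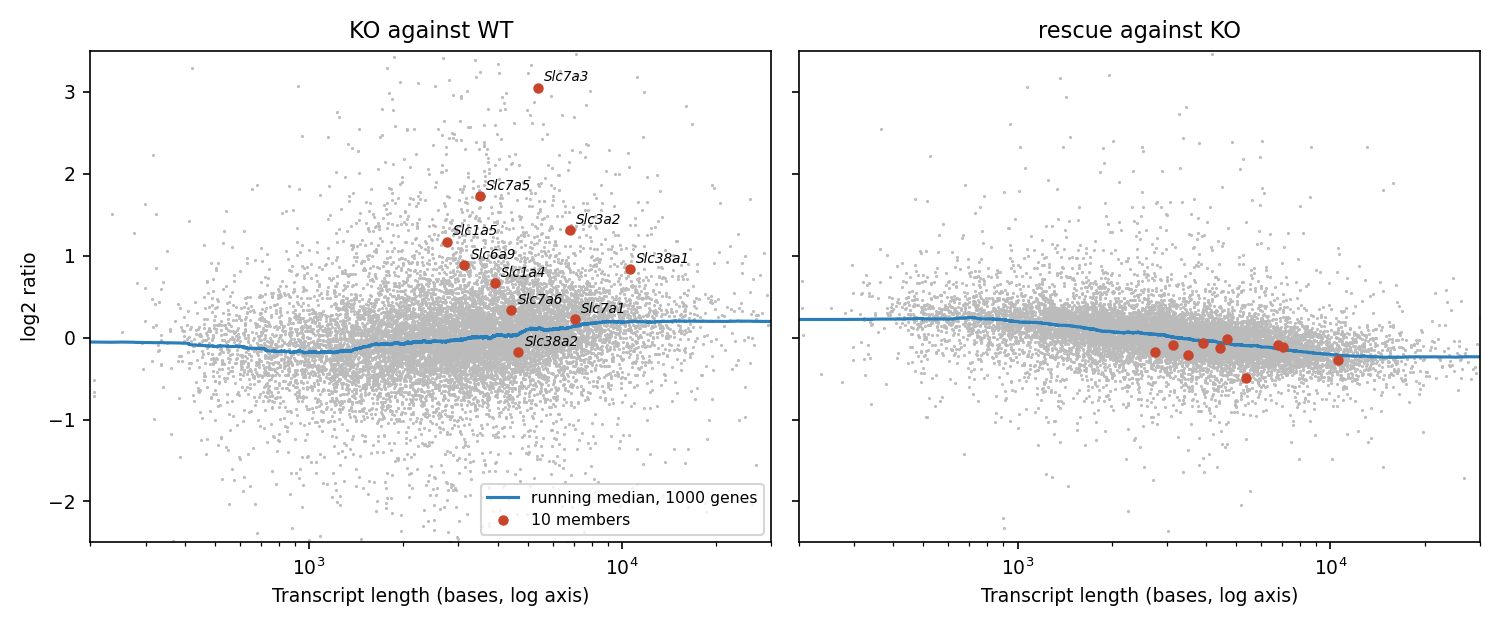
Log2 ratio against transcript length (log axis) for all genes tested in 2 comparisons, with the running median over 1000 genes as a line and the 10 genes as large points. Genes beyond the vertical range are not drawn. In rescue against KO the line slopes downwards and the 10 genes lie near it or below it, with Slc7a3 lowest at -0.50.

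The other amino acid carriers went both ways, with 11 above and 9 below 0. Of 47 further transporter genes listed, 20 passed the count filter. Of these, 4 (20%) were at least 2-fold higher in KO than in WT and 1 was lower, with a median log2 ratio of 0.12. Of all genes tested, 5.35% were higher and 4.07% lower. Slc43a1, a carrier of large neutral amino acids (LAT3), had 82 counts in rescue, 120 in KO and 24 in WT (KO 5.01-fold above WT). Slc7a11, the cystine carrier that also pairs with Slc3a2, had 81 counts in rescue, 115 in KO and 34 in WT (KO 3.41-fold above WT). Slc7a2 (CAT2), a further cationic carrier, had 65 counts in rescue, 108 in KO and 35 in WT (KO 3.11-fold above WT). Slc1a3, a glutamate carrier, had 65 counts in rescue, 105 in KO and 40 in WT (KO 2.65-fold above WT). All 4 were lower in rescue than in KO, with log2 ratios from -0.73 for Slc7a2 to -0.50 for Slc7a11. They were chosen for large KO against WT ratios, which use the same KO library, so the choice itself favours lower values in rescue. The length trend was not subtracted from these ratios.

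The gene that was 2-fold lower was Slc6a17, a neutral amino acid carrier of synaptic vesicles, with 71 counts in rescue, 82 in KO and 206 in WT. It and Slc6a6, the taurine carrier, were chosen after their values were seen. Slc6a6 had 7588 counts in KO and 14712 in WT (log2 ratio -0.93). Among 159 other solute carrier genes that passed the filter, 10 (6.29%) were at least 2-fold higher in KO and 9 lower, with a median of -0.05. The share higher was near the 5.35% of all genes tested, of which 4.07% were lower. In rescue against KO the medians were -0.09 for the 20 other amino acid transporters and 0.00 for the other solute carriers.

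**Figure D5:**
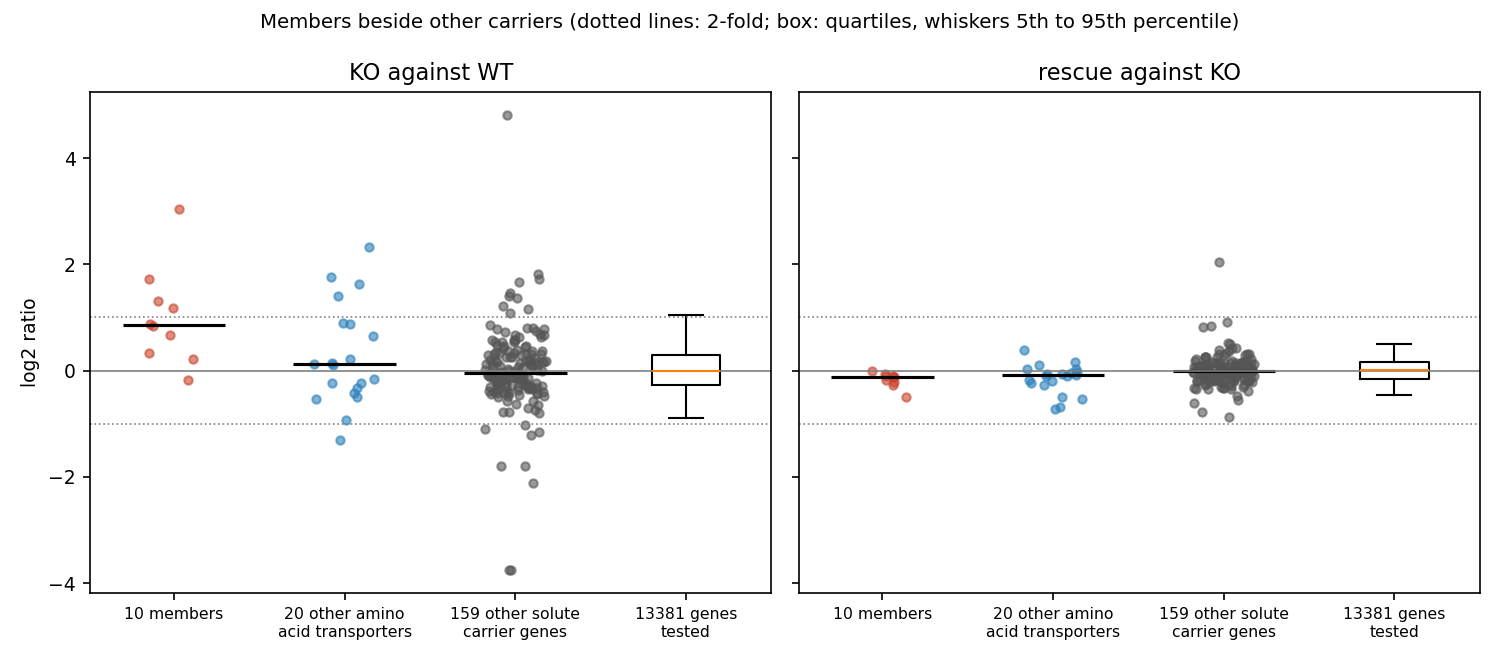
Log2 ratios of the 10 genes, of 20 other amino acid transporters and of 159 other solute carrier genes, with horizontal lines at the medians, beside a box for the 13381 genes tested. In KO against WT the medians are 0.86, 0.12, -0.05 and 0.00 from left to right.

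Enzymes of the use or synthesis of the carried amino acids went both ways. Of 30 that passed the filter, 5 (16.7%) were at least 2-fold higher in KO than in WT and 2 lower, with a median of 0.04. Across all genes tested, 5.35% were higher and 4.07% lower. Asns, which makes asparagine from aspartate with the nitrogen of glutamine, had 5223 counts in rescue, 5312 in KO and 1677 in WT (KO 3.22-fold above WT). Bcat1, the cytosolic transaminase of leucine, isoleucine and valine, had 787 counts in rescue, 833 in KO and 329 in WT (KO 2.57-fold above WT). Phgdh, the first enzyme of serine synthesis, was 2.14-fold above WT. Ass1 and Asl, consecutive enzymes of arginine synthesis, had KO against WT log2 ratios of 1.05 and -0.52. In rescue against KO, the comparison by which they were chosen, their log2 ratios were -0.40 and 0.36. Gamt, which completes creatine synthesis from an arginine- and glycine-derived precursor, had 340 counts in rescue, 298 in KO and 835 in WT (KO 2.75-fold below WT). Its row was short, at 988 bases, and the enzyme ratios were given without subtraction of the length trend.

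Few genes of amino acid sensing and the mTORC1 pathway differed by 2-fold. Of 35 tested, 1 (2.86%) was at least 2-fold higher in KO and 1 lower, beside 5.35% and 4.07% of all genes tested. Their median was -0.03. The counting interval lay wholly above 0 for 12 of the 35 and wholly below 0 for 15, beside 29.0% and 29.3% of all genes. The higher gene was Sesn2, a leucine sensor that holds mTORC1 back, with 428 counts in rescue, 521 in KO and 217 in WT (KO 2.44-fold above WT). The lower one was its relative Sesn3, with 10 counts in KO and 28 in WT, named after its values were seen. Lamtor4 and Lamtor1, parts of the Ragulator scaffold on the lysosome, had log2 ratios of -0.90 and -0.77, and Rragc, a Rag GTPase, -0.63. In rescue, Lamtor4 was 1.46-fold above KO. The rows of Lamtor4 and Lamtor1 were short, at 877 and 1186 bases, and no length trend was subtracted from these single-gene ratios. At 1873 bases that trend was -0.07 between KO and WT. Between rescue and KO it was 0.08 there, so both signs were those of Lamtor4. How much of the Lamtor4 and Lamtor1 ratios followed length was not tested.

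Among 21 tested regulators of transporter genes, 4 (19%) were at least 2-fold higher in KO and 0 lower, beside 5.35% and 4.07% of all genes. Their median was 0.25. Trib3, a pseudokinase induced by ATF4, had 720 counts in rescue, 836 in KO and 145 in WT (KO 5.85-fold above WT). Atf3, a transcription factor downstream of ATF4, had 640 counts in rescue, 762 in KO and 199 in WT (KO 3.89-fold above WT). Cebpb, a C/EBP factor that can pair with ATF4, was 2.64-fold above WT. Eif2ak4 (GCN2), the kinase that senses uncharged tRNA, had 467 counts in rescue, 561 in KO and 235 in WT (KO 2.43-fold above WT). Atf4 itself, which is controlled largely by translation, had 5441 counts in rescue, 5115 in KO and 4377 in WT, named after its values were seen. Tfeb, a lysosomal transcription factor, was 1.24-fold above KO in rescue. Ratios of single regulators were likewise given without subtraction of the length trend.

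Promoter sequence was examined because 9 of the 10 genes were higher in KO. RefSeq windows from 250 bases before to 50 bases after a gene start (GRCm38.p6) were given for 6 of the 10 genes, as 10 windows. None was given for Slc7a5, Slc7a3, Slc1a5 and Slc38a1, so Slc3a2 was the only gene at least 2-fold higher in KO that could be searched. The motif TGATGNAA, the core of the C/EBP-ATF element bound by ATF4, was searched on both strands. It occurred in a window of 4.51% of all 27025 genes and of 1 of the 6 genes, Slc1a4. The E-box CACGTG, a site of MYC, which reads the same on both strands, occurred in a window of 8.09% of all genes and of 0 of the 6 genes. Neither motif overlaps the other. A match is a description of letters, and other regions of these genes were not analysed here.

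For 4 genes, 120 bases before and 20 bases after the start are printed, 5′ to 3′ on the strand of the gene, with matches to TGATGNAA on either strand in capitals. Slc1a4 (chr11:20332694-20332833, minus strand) is shown as the 1 gene with a match. Slc3a2 (chr19:8713878-8714017, minus strand) is shown as the 2-fold higher gene with a window, and Slc38a2 (chr15:96699709-96699848, minus strand) as the lower gene. Slc7a11 (chr3:50443594-50443733, minus strand), the cystine carrier, is shown for comparison, with 2 matches. It was chosen with earlier results of these data known, and matches were not listed for any other transporter outside the family.
Slc1a4: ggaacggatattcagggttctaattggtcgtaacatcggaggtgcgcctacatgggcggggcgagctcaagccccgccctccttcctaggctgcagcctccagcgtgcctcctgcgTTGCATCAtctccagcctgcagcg
Slc3a2: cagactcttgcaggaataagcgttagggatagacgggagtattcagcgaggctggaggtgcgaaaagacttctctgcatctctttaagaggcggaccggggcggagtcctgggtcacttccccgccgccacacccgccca
Slc38a2: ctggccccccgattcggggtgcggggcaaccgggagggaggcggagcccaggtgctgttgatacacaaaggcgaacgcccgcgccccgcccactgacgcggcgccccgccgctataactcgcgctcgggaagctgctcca
Slc7a11: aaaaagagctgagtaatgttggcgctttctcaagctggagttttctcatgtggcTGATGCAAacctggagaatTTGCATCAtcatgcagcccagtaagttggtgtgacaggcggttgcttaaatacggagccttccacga

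The match of Slc1a4 spans the annotated start, and KO was 1.59-fold above WT for that gene. Slc3a2, with no match in its window, was 2.47-fold above WT in KO, and Slc38a2, also with none, was 1.13-fold below. Slc7a11, the only transporter outside the family looked at in this way, had its pair of matches in opposite orientation and was 3.41-fold above WT in KO. Whether a match bears on any of these ratios was not tested.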

How the data were processed

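Total RNA was taken with TRIzol, and a DNBSEQ-G400RS kit served for the libraries, per the labels' protocols. The submitters' processing notes list featureCounts 2.0.0, HISAT2 2.2.1 and cutadapt 1.9.1 and the build GRCm39 (mm39), without settings. Every deposited table held a raw count, an RPKM and a TPM for 139023 transcript rows. The deposited counts were whole numbers without normalization. The RPKM and TPM deposited by the authors equalled values recomputed from counts and row lengths within 4.98e-06 and 4.40e-06, and only counts were analysed. Because rows of a gene held nearly the same reads, each gene was represented by its row with the highest summed count. Genes with a mean of 1 CPM or more were kept. Scaling used TMM factors (0.989 rescue, 1.00 KO, 1.01 WT) from edgeR 4.0.16 in R 4.3.3. Log2 ratios used a pseudocount of 0.5, with exact conditional (Clopper-Pearson) 95% counting intervals from scipy 1.17.1. No molecular identifiers are given, so reads are not independent molecules and intervals cover counting error only. The ratio and interval code was tested on simulated data.

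The 10 genes and the 4 other lists were chosen with earlier results of these data known. Of 141 entries in those lists, 140 matched the tables, directly or through RefSeq synonyms of GRCm38.p6. Named from each list were the 4 genes with the largest KO against WT ratio and the 2 with the largest rescue against KO ratio, among genes with 100 or more counts in a library; others from these lists are marked in the text, and the cell type markers named singly were chosen after their values were seen. One gene picked this way is not reported here. The alternatives were RLE factors, total counts, no filter or 5 CPM, a pseudocount of 5, the sum of rows or the longest row, and subtraction of a running median over 1000 genes ordered by length.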

Additional observations from a re-analysis of the deposited data

How the results depend on the processing

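A recomputed count was taken as stable within 1.5 times the reported count. A recomputed median was taken as stable between the median lower bound and the median upper bound of the 10 genes' counting intervals. Under 8 alternatives, 103 of 104 recomputed counts and medians for the 10 genes and the other lists were stable by these rules. The exception among these was the number of other amino acid transporters at least 2-fold higher in KO than in WT, which was 7 with no low-count filter, since genes with a few counts then entered. Of 48 recomputed counts over all genes, 15 moved by more than 1.5 times, 12 of them with the other count filters, which change the genes tested. With a mean of 5 CPM or more, 3.62% of 10973 genes were at least 2-fold higher in KO than in WT and 2.21% lower, 0.492% were higher in rescue than in KO and 0.0638% lower, and 2.96% were higher in rescue than in WT and 1.48% lower. The number of the 10 genes at least 2-fold higher in KO than in WT was 4 under each alternative; against WT in rescue it was 3, or 4 with the length trend removed. Of 240 recomputed log2 ratios of single genes, 7 left their counting interval, all with the length trend removed. In rescue against KO, 3 ratios then changed sign, to 0.04 for Slc3a2, 0.03 for Slc7a1 and 0.06 for Slc38a2. No paired analysis was possible because each group had 1 library, and no library could be left out. Depth limits Slc7a3 most, with 18 counts in WT.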
